A study of Homo sapiens with 4 samples.

Results

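The autophagy machinery was read on the array by 10 of the 440 antibodies. These were all the antibodies to ULK1, Beclin, UVRAG, WIPI1, WIPI2, Atg7, Atg3, Atg5, Atg4B and LC3A-B, taken by protein name. Of the 10, 9 recognise the protein itself and 1, ULK1_pS757, recognises ULK1 phosphorylated at S757. Their targets are the products of 11 human genes, since the LC3A-B antibody is named for both MAP1LC3A and MAP1LC3B. Beclin is the product of BECN1. LN229 cells are an established line grown from a human glioblastoma. In the reverse phase protein array (RPPA), lysates are printed on slides as dilution series and each slide is probed with 1 antibody. The series held 2 samples of untreated LN229 cells, labelled as taken at 0 min, and 2 samples of LN229 cells exposed to 300 nM salmon calcitonin (sCT), a ligand of the calcitonin receptor, for 60 min. No other treatment or genetic change was named for either group. Treatment and time in culture changed together, so they cannot be told apart in this comparison.

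Macroautophagy encloses cytoplasm in a double membrane, the autophagosome, and delivers it to the lysosome. The ULK1 kinase starts the process, and a class III phosphatidylinositol 3-kinase complex built around Beclin then marks the membrane with phosphatidylinositol 3-phosphate, which the WIPI proteins bind. A pair of ubiquitin-like reactions follows, in which Atg7 acts as the activating enzyme, Atg3 as the conjugating enzyme for LC3, and Atg5, joined to Atg12, as part of the ligase. LC3 is trimmed by the protease Atg4B before it is attached to lipid. In many tumors, glioblastoma among them, autophagy is studied as a response to nutrient stress and to therapy.

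Values are linear relative levels, scaled so that the sample medians over the panel lay at about 1. A level compares samples for 1 antibody, but not one antibody with another, and it does not show whether a protein is well above background or whether markers of the cell type are present. The array does not separate proteins by size, so the LC3A-B antibody reads the free and the lipid-bound form together. Across the panel the log2 levels of the replicates correlated with Pearson's r = 0.790 in untreated cells and r = 0.975 after sCT, over antibodies, which are not independent replicates. The labels call the samples replicates, but nothing says that they came from separate cultures, so the p-values measure only the spread between these samples. An exact permutation test of 1 antibody with 2 samples against 2 cannot give a two-sided p under 0.33. The comparison therefore rests on limma, in which each antibody borrows information on its spread from the rest of the panel. All adjusted p-values below are from limma with Benjamini-Hochberg adjustment over the whole panel.

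After sCT, 7 of the 10 autophagy antibodies passed an adjusted p of 0.05, against 55.0% of the panel. Of these, 4 were lower (33.6% of the panel) and 3 were higher (21.4% of the panel). The lower ones were ULK1_pS757, UVRAG, Atg4B and Atg3. The higher ones were Atg5, LC3A-B and Atg7. Beclin, WIPI1 and WIPI2 did not pass. Fewer passed without sCT replicate 1, in the list as in the panel. In an unequal-variance test on linear levels 0 of 10 passed after adjustment and 4 of 10 at an unadjusted p of 0.05. Over all 440 antibodies, 1 and 155 did so. The higher calls of the panel went from 94 to 40 with relative loading control centring, where 7 loading control antibodies, each relative to its own mean, set the zero of a sample. They went to 38 without sCT replicate 1, 43 without sCT replicate 2 and 55 without untreated replicate 2. The 2 sCT samples lay outside the range of the 2 untreated samples for 8 of the 10 (5 lower and 3 higher), where 85.9% of the panel did so, 43.0% in each direction. The median log2 fold change over the 10 was -0.034, beside 0.016 over all antibodies. The median size of the change, without its sign, was 0.33 over the 10 and 0.22 over all antibodies, and 6 of the 10 exceeded the latter value. The changes were moderate. By the study's thresholds, an unadjusted p of 0.05 and a log2 change of at least 0.58 up or down, 1 of the 10 passed, ULK1_pS757, against 21.6% of the panel.

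**Figure D1:**
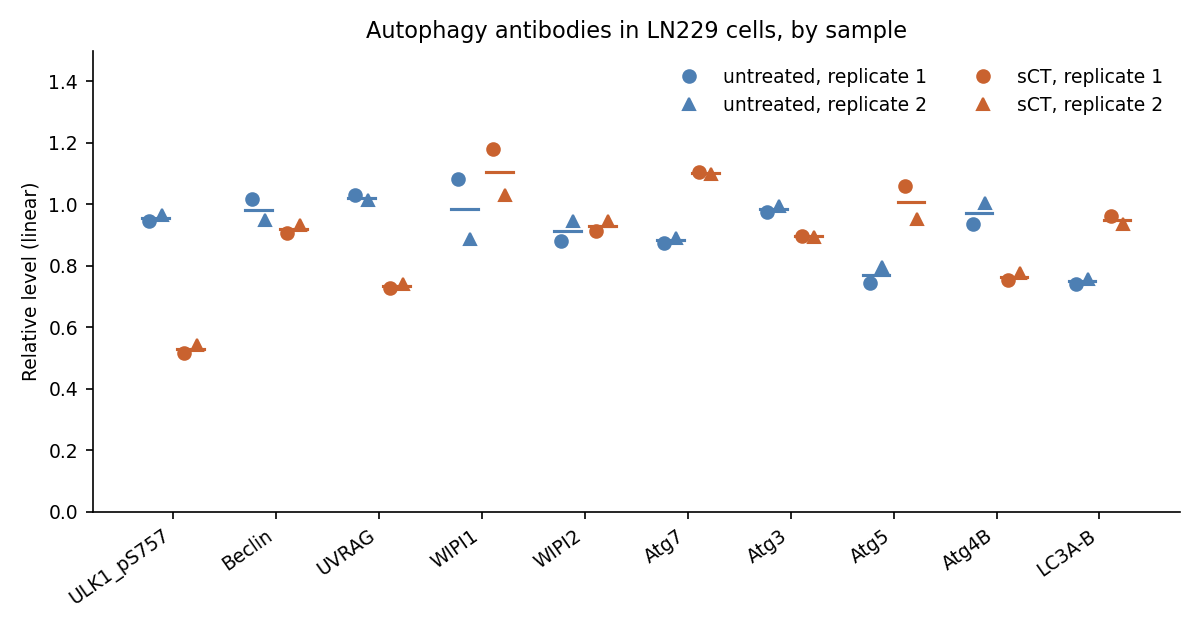
Relative level (linear scale) of each autophagy antibody in the 2 untreated and the 2 sCT-treated LN229 samples, with circles for replicate 1, triangles for replicate 2 and short lines for the group means. ULK1_pS757, UVRAG, Atg4B, Atg3 and, by a small gap, Beclin lie lower in both sCT samples. Atg7, Atg5 and LC3A-B lie higher in both, and the groups of WIPI1 and WIPI2 overlap.

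ULK1 phosphorylated at S757 showed the largest change among the autophagy antibodies. S757 is a site of the mTOR complex mTORC1, numbered as in the mouse protein, and its phosphorylation is known to restrain ULK1. The level was 0.946 and 0.965 in the untreated samples and 0.517 and 0.541 in the sCT samples. The groups were far apart relative to their spread, with means of 0.956 ± 0.0131 (SD, n = 2) and 0.529 ± 0.0170 (SD, n = 2). This gave a log2 fold change of -0.85 (SE 0.048, 95% interval -0.98 to -0.73, adjusted p = 0.000290), and the mean level fell by 44.6%. In the order of the panel from the deepest fall it had rank 59 of 440. Quantile normalization of the samples reduced the fall to -0.51 on the log2 scale, still called (adjusted p = 0.00546). By mean level over all 4 samples ULK1_pS757 was among the 10% lowest antibodies, so leaving those out gave no value for it. That mean includes the lower sCT samples, so this place does not show a weak signal. Over the panel, leaving out these antibodies took the lower calls from 148 to 110 and the higher calls from 94 to 93. Total ULK1 was not analysed here, so a lower share of phosphorylated ULK1 and a lower amount of ULK1 cannot be told apart. Lower calls were frequent among phosphorylated sites in these samples. Of the 88 site antibodies, 42 were lower (47.7%) and 9 higher, against 106 lower (30.1%) and 85 higher of the 352 total-protein antibodies. The part of this shift in the fall of ULK1_pS757 was not tested.

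The class III phosphatidylinositol 3-kinase complex was represented by UVRAG and Beclin, which bind each other. UVRAG, a Beclin partner that also acts in endosome traffic, had levels of 1.03 and 1.01 in untreated cells and 0.729 and 0.741 after sCT. Both sCT samples were lower, and replicates differed by little in either group. Its mean fell by 28.1%, with a log2 fold change of -0.48 (SE 0.043, 95% interval -0.59 to -0.36, adjusted p = 0.00103). Beclin, the scaffold of the complex, had levels of 1.02 and 0.948 in untreated cells and 0.906 and 0.934 after sCT. Its sCT samples were below both untreated samples, but the nearest pair lay closer together than the untreated replicates did. For Beclin the log2 fold change was -0.094 (95% interval -0.24 to 0.053, adjusted p = 0.200). With relative loading control centring Beclin came to -0.23 and was called lower (adjusted p = 0.0354). Within each sample, the log2 ratio of UVRAG to Beclin was 0.020 and 0.095 in untreated cells and -0.31 and -0.33 after sCT. A uniform shift of a sample cancels in such a ratio, and UVRAG was lower relative to Beclin in both sCT samples, by -0.38 log2 units as deposited and -0.27 under quantile normalization.

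The WIPI proteins, which bind the lipid made by this complex, were not called as changed. WIPI1 had levels of 1.08 and 0.889 in untreated cells and 1.18 and 1.03 after sCT. Replicates of WIPI1 differed the most among the 10 antibodies, with an SD of 0.20 log2 units in untreated cells and 0.14 after sCT, and the groups overlapped. Its log2 fold change was 0.17 (95% interval -0.15 to 0.49, adjusted p = 0.271), so a rise or a small fall lies within the interval. Replicate 1 lay above replicate 2 in both groups. With the replicate number as a block in limma the adjusted p of WIPI1 was 0.0548, also not a call. Leaving out 1 sample moved the log2 fold change of WIPI1 between 0.029 (without untreated replicate 2) and 0.31 (without untreated replicate 1), with 0.073 without sCT replicate 1 and 0.27 without sCT replicate 2. WIPI2, which recruits the Atg16L1 part of the ligase, had levels of 0.881 and 0.946 in untreated cells and 0.914 and 0.946 after sCT. For WIPI2 the log2 fold change was 0.027 (95% interval -0.12 to 0.18, adjusted p = 0.706). This is the narrower interval of the pair, and its direction turned with relative loading control centring (-0.11, adjusted p = 0.161) and without untreated replicate 1 (-0.025).

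The enzymes that attach LC3 to lipid moved in different directions. Atg7, the activating enzyme shared by the Atg12 and the LC3 reaction, had levels of 0.876 and 0.890 in untreated cells and 1.10 in both sCT samples. Both sCT samples were higher, and the replicates lay close together in each group. The means were 0.883 ± 0.0101 (SD, n = 2) and 1.10 ± 0.00306 (SD, n = 2), a log2 fold change of 0.32 (SE 0.043, 95% interval 0.21 to 0.43, adjusted p = 0.00362) and a rise of 24.8%. Atg7 kept its call whichever of the 4 samples was left out, with log2 fold changes of 0.31 to 0.33 (adjusted p at most 0.0376). The scaling set its size, which was 0.51 under quantile normalization (adjusted p = 0.0138) and 0.19 with relative loading control centring (adjusted p = 0.0181).

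Atg5, the core of the ligase, had levels of 0.746 and 0.796 in untreated cells and 1.06 and 0.953 after sCT. Both sCT samples were higher, with a wider spread between them than between the untreated samples. It rose by 0.38 on the log2 scale (SE 0.073, 95% interval 0.19 to 0.58, adjusted p = 0.0106), the largest rise of the 10 and rank 31 of the panel from the highest rise. Leaving out untreated replicate 1 removed the call (0.34, adjusted p = 0.0561), and so did leaving out sCT replicate 1 (0.31, adjusted p = 0.0585). Under quantile normalization it was 0.89 (adjusted p = 0.0264), and with relative loading control centring 0.25 (adjusted p = 0.0381).

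Atg3, the conjugating enzyme that receives LC3 from Atg7, had levels of 0.976 and 0.994 in untreated cells and 0.898 and 0.894 after sCT. The sCT samples were lower by a small step, and the mean fell by 9.04%. With a log2 fold change of -0.14 (95% interval -0.25 to -0.024, adjusted p = 0.0497), Atg3 was just past the threshold. This call was lost whichever of the 4 samples was left out (adjusted p from 0.0909 to 0.176) and under quantile normalization (-0.080, adjusted p = 0.220), whereas relative loading control centring gave -0.27 (adjusted p = 0.00593). The log2 ratio of Atg7 to Atg3 within a sample was -0.16 in both untreated samples and 0.30 in both sCT samples. It was higher after sCT by 0.46 log2 units, and by 0.59 under quantile normalization.

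LC3A-B, the ubiquitin-like proteins that coat the autophagosome membrane, had levels of 0.741 and 0.758 in untreated cells and 0.963 and 0.935 after sCT. Both sCT samples were higher, by more than the replicates differed. LC3A-B rose by 0.34 on the log2 scale (SE 0.046, 95% interval 0.22 to 0.46, adjusted p = 0.00363), or 26.7% of the mean level. It kept its call whichever of the 4 samples was left out (0.32 to 0.36, adjusted p at most 0.0376). Under quantile normalization the log2 fold change of LC3A-B was 0.91 (adjusted p = 0.0108), and with relative loading control centring 0.21 (adjusted p = 0.0157).

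Atg4B, the protease that both trims LC3 before lipidation and releases it from lipid, had levels of 0.937 and 1.01 in untreated cells and 0.753 and 0.778 after sCT. Both sCT samples were lower, and the mean fell by 21.2%, a log2 fold change of -0.34 (SE 0.056, 95% interval -0.49 to -0.20, adjusted p = 0.00679). The call was lost without sCT replicate 1 (-0.32, adjusted p = 0.0578) and under quantile normalization (-0.17, adjusted p = 0.170). The log2 ratio of LC3A-B to Atg4B within a sample was -0.34 and -0.41 in untreated cells and 0.36 and 0.27 after sCT, a difference of 0.68 log2 units that was 1.08 under quantile normalization. LC3A-B was thus higher relative to its protease in both sCT samples. The ratios of pairs were chosen after the levels were known and are given as a description, without a test.

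**Figure D2:**
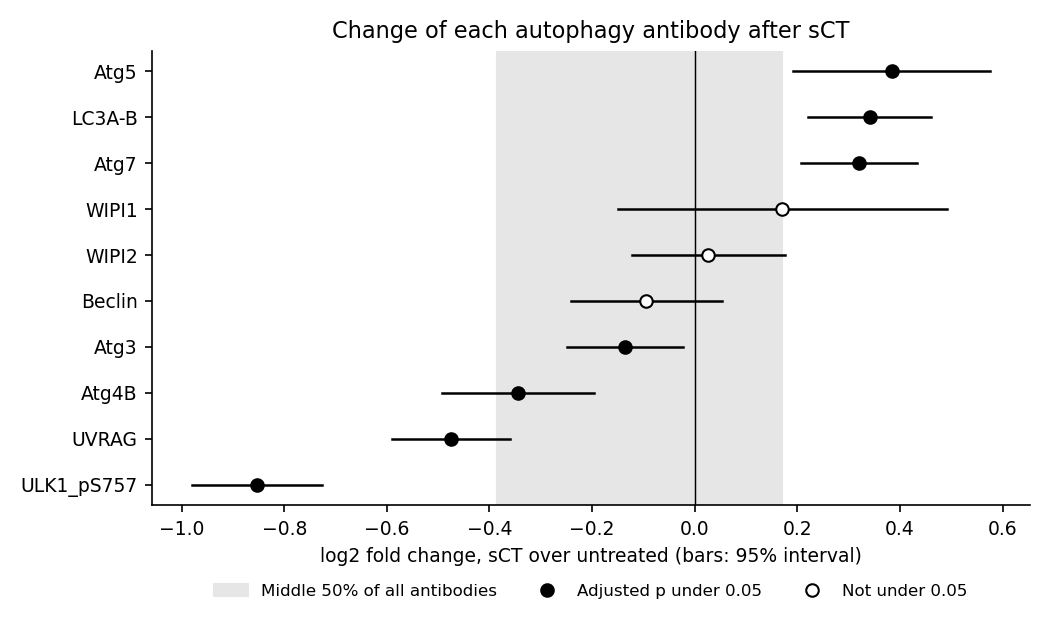
Log2 fold change of each autophagy antibody, sCT over untreated (2 samples against 2), with 95% intervals from limma that are not adjusted for the number of antibodies, filled symbols for an adjusted p under 0.05 and a grey band for the middle 50% of all 440 antibodies. Atg5, LC3A-B and Atg7 lie above the band, UVRAG and ULK1_pS757 lie below it, and the other 5 lie inside it or at its edge.

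In the order of the changes only ULK1_pS757 stood apart by its 95% interval. Atg5, LC3A-B and Atg7, at 0.38, 0.34 and 0.32, lay within each other's 95% intervals, as did Beclin and Atg3. Atg4B and UVRAG, at -0.34 and -0.48, also had overlapping intervals. The interval of Atg4B reached those of Atg3 and Beclin too, and the wide interval of WIPI1 overlapped with these and with the called rises. The interval of ULK1_pS757 overlapped with none of the other 9, and those of the 3 called rises overlapped with none of the 4 called falls. Differences between the changes of single antibodies were not tested. In the panel as a whole, all 10 lay well inside the extremes, which ran from -4.38 to 1.69, and the 3 rises were at ranks 31, 41 and 49 of 440 from the highest rise.

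**Figure D3:**
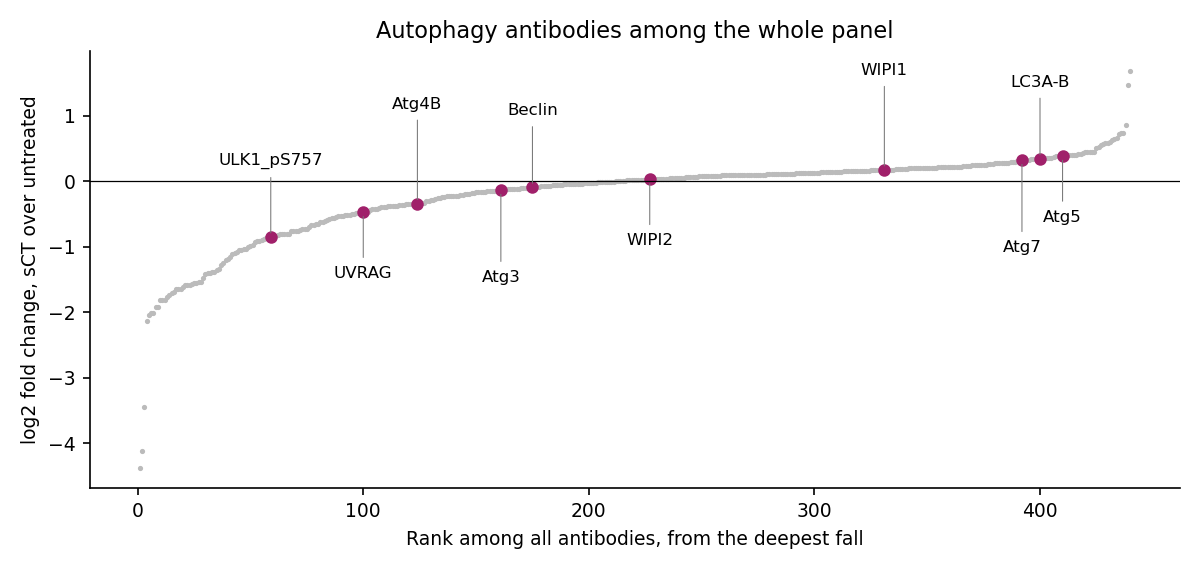
Log2 fold change (sCT over untreated) of all 440 antibodies against their rank from the deepest fall, in grey, with the autophagy antibodies marked and named. They are spread over most of the range of ranks, from ULK1_pS757 at rank 59 to Atg5 at rank 410.

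The levels depend on how samples were scaled to each other. Of 7 loading control antibodies, limma called 3 higher after sCT (21.4% of the panel) and 0 lower (33.6% of the panel). The threshold was an adjusted p of 0.05, and the same 3 passed an unadjusted p of 0.05. They were GAPDH at 0.57 (adjusted p = 0.00578), Cyclophilin-F at 0.33 (adjusted p = 0.00480) and b-Actin at 0.17 (adjusted p = 0.0386), as log2 fold changes. The call of b-Actin was lost whichever of the 4 samples was left out, and that of GAPDH without sCT replicate 2. The others were Cox-IV at 0.12, Porin at 0.082, Vinculin at 0.039 and Histone-H3 at -0.15, and the median of the 7 was 0.12. The rises of Atg7, Atg5 and LC3A-B each exceeded at least 5 of the 7 and were below GAPDH, with Cyclophilin-F at about their size. The part of loading in them was not tested. Centring on the 7 antibodies moved every log2 fold change by -0.13. With it Atg7, Atg5 and LC3A-B kept their calls, and the lower calls were ULK1_pS757, UVRAG, Atg4B, Atg3 and Beclin. Quantile normalization gives all samples 1 distribution. The lowest level of a sample was 0.596 and 0.426 in untreated cells but 0.045 and 0.047 after sCT, and this step evens out such differences. Their part in the values under this scaling was not tested. Quantile normalization kept the 3 rises and the falls of ULK1_pS757 and UVRAG. Under it GAPDH came to 1.13, Vinculin to 0.61, Cyclophilin-F to 0.46 and Cox-IV to 0.37, all called higher by limma (adjusted p at most 0.00763). The other controls, b-Actin at 0.21, Porin at 0.096 and Histone-H3 at -0.14, were not called. Atg7, at 0.51, was then below GAPDH and Vinculin, and Atg5 and LC3A-B, at 0.89 and 0.91, were below GAPDH.

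**Figure D4:**
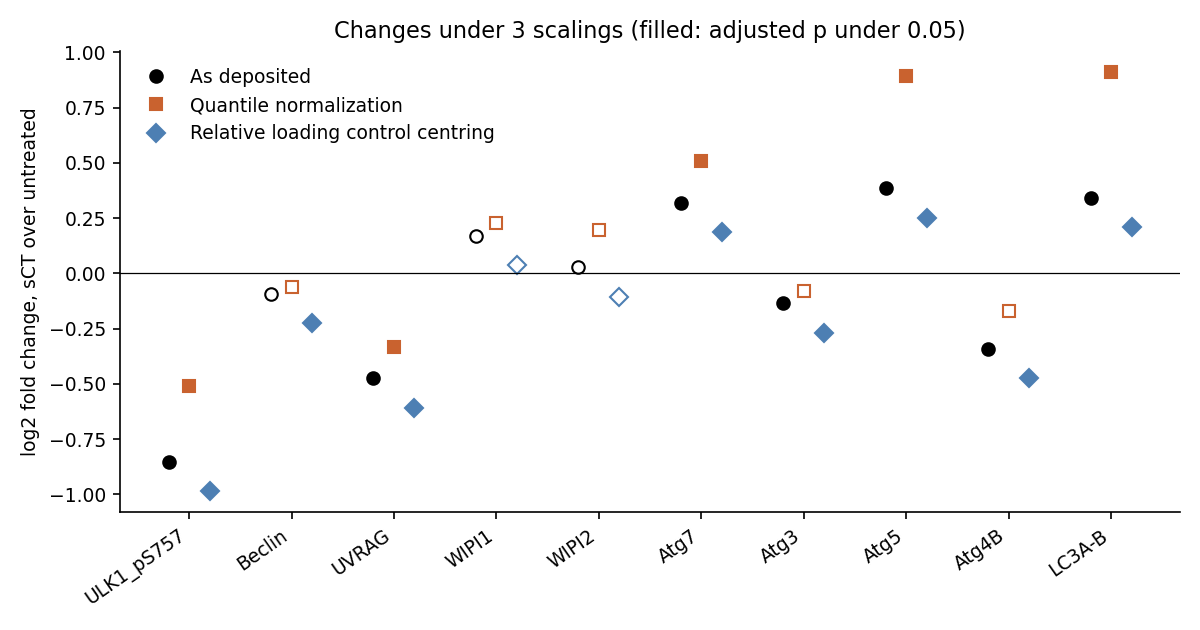
Log2 fold change (sCT over untreated) of each autophagy antibody on the deposited scale (circles), after quantile normalization (squares) and after relative loading control centring (diamonds), with filled symbols for an adjusted p under 0.05. Atg7, Atg5, LC3A-B, ULK1_pS757 and UVRAG are filled under the 3 scalings, and WIPI2 is the only one whose sign differs between them.

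Regulators upstream of the machinery were read by 14 antibodies to 8 of 9 listed proteins. Of these, 7 were lower (33.6% of the panel), 0 higher (21.4% of the panel) and 7 did not pass in limma, where 2 of the latter (AMPKa and PRAS40) had an unadjusted p under 0.05. The mTOR kinase, whose complex mTORC1 phosphorylates ULK1 at S757, had levels of 1.07 and 1.06 in untreated cells and 0.732 and 0.739 after sCT. Total mTOR was lower in both sCT samples (log2 fold change -0.53, adjusted p = 0.000702). mTOR phosphorylated at S2448 was lower as well, at -0.37 (adjusted p = 0.00332). Raptor, the defining subunit of mTORC1, was at 0.11 (95% interval -0.020 to 0.24, adjusted p = 0.118). Rictor, the defining subunit of mTORC2, was at -0.71 (adjusted p = 0.000419), and its T1135 site at -0.29 (adjusted p = 0.00689), a call lost if sCT replicate 1 or sCT replicate 2 was left out (adjusted p = 0.0578 and 0.0503). Rictor was at -0.44 under quantile normalization, still called (adjusted p = 0.00564). The log2 ratio of ULK1_pS757 to total mTOR within a sample was -0.17 and -0.13 in untreated cells and -0.50 and -0.45 after sCT. This ratio fell by 0.32 log2 units, so the ULK1 site was lower relative to mTOR in both sCT samples, while the ratio of mTOR_pS2448 to mTOR was higher by 0.16. Quantile normalization reduced the fall of the first ratio to -0.11 and left the second at 0.11.

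The tuberous sclerosis complex, a brake on mTORC1, fell in both subunits measured. Tuberin (TSC2) had levels of 1.28 and 1.34 in untreated cells and 0.553 and 0.666 after sCT, which placed it at -1.11 (adjusted p = 0.00103). TSC1 was at -0.49 (adjusted p = 0.00462). Tuberin phosphorylated at T1462, an AKT site, was at 0.017 (95% interval -0.10 to 0.14, adjusted p = 0.754). The target of the complex, Rheb, the GTPase that switches mTORC1 on, was at 0.18 with a wide interval of -0.31 to 0.67 (adjusted p = 0.438).

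AMPK, the energy-sensing kinase that activates ULK1 at other sites, was lower at its activating site T172 on the deposited scale, but not under every scaling. AMPKa_pT172 had levels of 0.654 and 0.723 in untreated cells and 0.507 and 0.544 after sCT, and was at -0.39 on the log2 scale (adjusted p = 0.00982). Quantile normalization, which evens out the unlike low ends of the samples, turned the direction, to 0.58 and a call as higher (adjusted p = 0.0347). The lower call was lost without sCT replicate 1 (-0.34). The AMPKa antibody to the whole protein was at -0.13 (95% interval -0.24 to -0.012, adjusted p = 0.0628). It came to 0.032 under quantile normalization and was called lower with relative loading control centring (-0.26, adjusted p = 0.00746). The log2 ratio of the site to the total fell by 0.26 on the deposited scale but was higher by 0.54 under quantile normalization, at -0.49 and -0.37 in untreated cells and -0.73 and -0.66 after sCT as deposited. AMPK-a2_pS345 was at 0.0098 (adjusted p = 0.865). PRAS40, an inhibitor within mTORC1, was at 0.15 in total (adjusted p = 0.0555) and at -0.17 at T246 (adjusted p = 0.104).

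Of the BCL2 proteins that can bind and hold Beclin, 1 rose (21.4% of the panel), 1 fell (33.6%) and 1 did not pass. Bcl-xL rose, with levels of 0.847 and 0.816 in untreated cells and 1.01 and 1.15 after sCT (log2 fold change 0.38, adjusted p = 0.0138). Its call was lost with relative loading control centring (0.25, adjusted p = 0.0645) and without untreated replicate 1, untreated replicate 2 or sCT replicate 2 (adjusted p from 0.0503 to 0.0782), and quantile normalization gave 0.68. Mcl-1 fell, from 1.07 and 1.11 to 0.836 in both sCT samples (-0.38, adjusted p = 0.00231). Bcl2 was at 0.14 (95% interval 0.020 to 0.25, adjusted p = 0.0553). A list of 23 cargo receptors, mitophagy proteins, lysosomal proteins and further autophagy factors was matched by 2 antibodies, and the others were not analysed here. Ambra1 phosphorylated at S52, like S757 of ULK1 a site of mTORC1, had levels of 0.958 and 1.03 in untreated cells and 0.778 and 0.777 after sCT (-0.35, adjusted p = 0.00594). Both of these mTORC1 sites were lower in both sCT samples, as were 43.0% of the panel, and 47.7% of all site antibodies were called lower. Total Ambra1 was not analysed here. The call of Ambra1_pS52 was lost under quantile normalization (-0.22, adjusted p = 0.0870), and again when sCT replicate 1 was left out (-0.36). DJ1, a redox-sensitive protein linked to mitophagy, was at 0.25 (adjusted p = 0.0255), a call lost with relative loading control centring (0.12) and whichever of the 4 samples was left out.

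**Figure D5:**
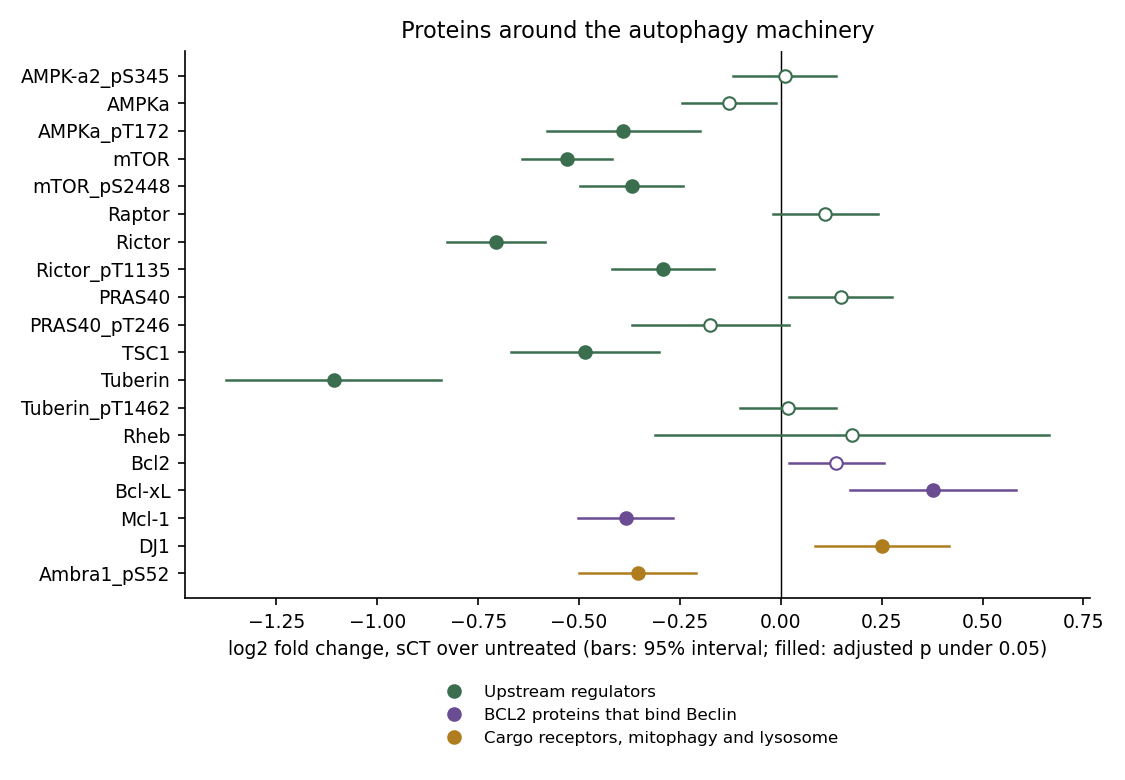
Log2 fold change (sCT over untreated) with 95% intervals for 19 antibodies to upstream regulators, to BCL2 proteins that bind Beclin, and to cargo, mitophagy and lysosome proteins, on the deposited scale, with filled symbols for an adjusted p under 0.05. Tuberin, Rictor and mTOR lie furthest to the left at -1.11, -0.71 and -0.53, and Bcl-xL and DJ1 are the only filled symbols to the right of 0.

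The antibodies outside the list whose levels varied most like Atg7 were BiP-GRP78, Notch3 and PCNA. Likeness was the distance between log2 profiles over the 4 samples, each centred on its own mean, and came to 0.018, 0.024 and 0.042 log2 units. BiP-GRP78, the chaperone of the endoplasmic reticulum, had levels of 0.850 and 0.871 in untreated cells and 1.09 and 1.08 after sCT. ULK1_pS757 lay closest to ZEB1, BRCA1 and HMHA1, at 0.046, 0.049 and 0.064 log2 units. ZEB1, a transcription factor of mesenchymal cells, had levels of 1.05 and 1.07 in untreated cells and 0.590 and 0.622 after sCT. With 4 samples such a likeness reflects mostly the size of the change.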

How the data were processed

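The values deposited by the authors are linear ratios, 1 relative level for each of 440 antibodies in each of 4 samples. According to the methods, serially diluted lysates were printed on nitrocellulose-coated slides, probed, developed with DAB and quantified as spot intensities. The steps from intensities to levels are not given in the sources used here, and signal over background is unknown. Samples were grouped by their titles. The log2 of each level, with no pseudocount and no filter, entered 1 fit over all 440 antibodies. It was made in R 4.3.3 by limma (version 3.58.1, functions lmFit and eBayes, group as the only term). Residual degrees of freedom were 2 per antibody, and the prior added 2.59. Tests were two-sided, and p-values were adjusted by the method of Benjamini and Hochberg over the panel. The steps were tested on simulated data. The 10 autophagy antibodies, the surrounding lists, the loading controls and the tests were chosen with earlier results of these data known. Every autophagy antibody and every matched antibody of the lists is named, as are the 3 nearest profiles to Atg7 and to the antibody with the largest change. Gene symbols were matched in RefSeq (GRCh38.p14), 11 of 11. Alternatives were linear levels, median centring, quantile normalization, relative loading control centring, the unequal-variance test, trended robust eBayes, leaving out the 10% lowest antibodies or each replicate, and the replicate number as a block. Their use on the surrounding lists, and quantile normalization of the ratios of pairs, were added after seeing the data. A ratio of phosphorylated to total ULK1 was planned but total ULK1 was not analysed here.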

Additional observations from a re-analysis of the deposited data

How the results depend on the processing

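Of 119 values of single autophagy antibodies under the alternatives, 99 kept direction and side of the threshold. Of the rest, 17 lost the call, 1 gained it and 2 turned direction. Both turns were of WIPI2 (-0.11 with relative loading control centring, and between -0.025 and 0.078 with a replicate left out). Beclin, WIPI1 and WIPI2, which were not called, gave 11, 12 and 10 of the 99. Median centring could move little, since the sample medians already lay at about 1. ULK1_pS757, among the 10% lowest antibodies by a mean that includes its sCT samples, had 11 values where each of the others had 12. Called autophagy antibodies were 7 in limma, 4 lower and 3 higher. With a replicate left out there were 4 to 6 (2 to 3 lower), fewest without sCT replicate 1; a lone sample is then assumed to vary like the other group. Quantile normalization left 2 lower. The unequal-variance test on linear levels called 0 of the 10 after adjustment (0 lower, 0 higher) and 4 at an unadjusted p of 0.05, and over the panel 1 (1 lower, 0 higher) and 155. The study's thresholds passed 1 (1 lower, 0 higher) of the 10 and 95 of the panel (84 lower, 11 higher). Over the panel, 242 were called, 148 to 214 with a replicate left out, fewest without sCT replicate 1 (148) and sCT replicate 2 (158). Of these, 94 were higher, 38 to 76 with a replicate left out and 40 with relative loading control centring. With the replicate block 6 of the 10 were called, 3 lower and 3 higher, and 238 of the panel; Atg3 lost its call (adjusted p = 0.0550). Same-numbered samples deviated together (r = 0.59 over antibodies), but the labels give only a number. The call of Atg3 was lost under 7 of 12 alternatives. Causes were not tested. Leaving out a sample also leaves fewer degrees of freedom, and the part of this in the lost calls was not separated. Of 311 values of the other listed antibodies, 251 kept direction and side, 36 lost a call, 11 gained one and 13 turned. Under quantile normalization AMPKa_pT172 turned to 0.58, AMPKa to 0.032, AMPK-a2_pS345 to -0.017 and the change of the ratio of AMPKa_pT172 to AMPKa to 0.54. With relative loading control centring AMPK-a2_pS345 turned to -0.12, Tuberin_pT1462 to -0.11, Raptor to -0.022, Cox-IV to -0.013, Porin to -0.050 and Vinculin to -0.093. With a replicate left out AMPK-a2_pS345 lay between -0.024 and 0.043, Rheb between -0.071 and 0.43, and Tuberin_pT1462 between -0.0083 and 0.043.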
